A study of Mus musculus with 16 samples.

Results

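Deletion of the histone chaperone HIRA in hepatocytes was compared with control in the 8 liver libraries whose columns carry the numbers 1 and 2, out of 16 libraries in the series. These are HIRA KO and control, before and after liver regeneration, with 2 libraries in each of the 4 combinations. All mice were male C57BL/6 mice that received an AAV8 vector under the hepatocyte promoter Tbg at 6 months of age. HIRA was deleted either with AAV8 Tbg-Cre in HIRA fl/fl mice, for which wildtype mice with AAV8 Tbg-Cre served as control, or with AAV8-Tbg-saCAS9/U6-sgRNA-HIRA in wildtype mice, for which the same vector with sgRNA-Rosa26 served as control. The left lateral and median lobes were resected 4 weeks after injection and gave the sample before regeneration, and the liver that remained was taken 5 days later as the sample after regeneration, so time, lobe and the surgery itself cannot be told apart. Each group of the series held 2 libraries of each deletion approach. The columns give genotype, time and a number, while the approach and the mouse of a column are not stated, so it is not known whether the numbers 1 and 2 stand for one approach, and the 4 libraries of a genotype can come from 2 to 4 mice.

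The columns were chosen with their values known. On the second principal component of all 16 libraries (26.5% of the variance over 13175 genes) the HIRA KO columns numbered 1 and 2 lay between -47.4 and -36.2, and the other 12 libraries between -1.14 and 31.2. The difference between HIRA KO and control within columns 1 and 2 is therefore given as a description with its error, and no p-value is attached to it. Counts of called genes in columns 1 and 2 come from that same comparison, so they state how many differences were large against the spread between libraries and are not read as tests. Tests were made of whether the KO effect differed between the times, and of KO against control in the columns numbered 3 and 4.

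HIRA is the core of a complex with UBN1 and CABIN1 that deposits H3.3, a replacement form of histone H3, outside of DNA replication, and H3.3 itself is encoded by H3f3a and H3f3b. Hepatocytes in adult liver seldom divide, and they carry the synthesis of plasma proteins, bile acids, cholesterol and drug-metabolizing enzymes. These tasks are distributed by zone along the lobule, between the portal field and the central vein, and many of the enzymes differ between the sexes under the rhythm of growth hormone.

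The 8 libraries held between 15258301 and 21738619 counts, and counting error is therefore small for all but the lowest genes. Reads of the mitochondrial genome took 4.43% to 6.75% of the counts and Alb, the gene of serum albumin, 7.83% to 13.5%. Levels are given as CPM (counts scaled to the TMM-adjusted library size, not corrected for gene length, so they are compared between libraries and not between genes). Where more than 4 members of a list are named, the further ones were chosen after their values were seen, because they were called. A gene was called where edgeR's quasi-likelihood test with time as covariate gave a Benjamini-Hochberg adjusted p under 0.05.

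Hira mRNA was lower in all 4 KO libraries than in any control. It stood at 5.62 and 6.08 CPM before and 5.51 and 4.99 CPM after in the control, against 3.39 and 3.13 CPM before and 3.17 and 3.29 CPM after in the KO, with a log2 fold change -0.76 ± 0.15. The ± of a fold change was throughout worked back from edgeR's quasi-likelihood test and was not estimated separately. It therefore carries the same information as that test, and it is unreliable for genes with few counts. The fall in Hira mRNA was partial. These whole-liver extracts also hold cells that the Tbg promoter does not target. Fewer cells of a type cannot be told apart from less RNA per cell in them. The source of the remaining Hira mRNA was not tested, and the mRNA does not measure the protein. The paper reports reduced HIRA protein in the KO by Western blot, both before and after regeneration. H3f3a was higher, at 62.9 and 53.5 CPM before and 59.8 and 57.1 CPM after in the control, against 103 and 106 CPM before and 107 and 129.8 CPM after in the KO, and H3f3b, the other H3.3 gene, had log2 fold change 0.51 ± 0.14. H3f3a has processed copies in the genome with which it may share reads, and the H3f3b call did not hold in 5 of 8 fits with a single library removed. The partners of HIRA were not called, with -0.26 ± 0.10 for Ubn1 and 0.04 ± 0.11 for Cabin1 on the log2 scale, nor was Asf1a, which hands H3.3 to the complex (0.38 ± 0.19). In all, 2 of the 13 HIRA and H3.3 chaperone genes were called higher (H3f3a and H3f3b) and 1 lower (Hira).

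Across 20857 genes tested, 3342 (16%) were called, 1553 higher (7.45%) and 1789 lower (8.58%) in HIRA KO. Among the called genes 1407 differed by more than 2-fold, 848 of them higher and 559 lower. The median log2 fold change over all genes was 0.02. Called-lower genes were more frequent among genes with many reads, a measure that gene length also sets. Their share went from 0.743% in the lowest of 5 equal classes of mean CPM through 3.50%, 7.98% and 11.5% to 19.1% in the highest class, whereas the share called higher was 1.87%, 8.06%, 11.9%, 8.34% and 7.05%. Among the 200 genes with the highest mean CPM 17 were called higher and 62 lower. The power to call a gene grows with its counts, which applies to both directions. The KO and control libraries did not overlap at either time, in the same direction, for 5651 genes (27.1%). This is the background for non-overlap within each time. No share over all genes was counted for the stricter case, used below for some genes, of every KO against every control library. For the genes named as largest, non-overlap within each time was a condition of naming.

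**Figure D1:**
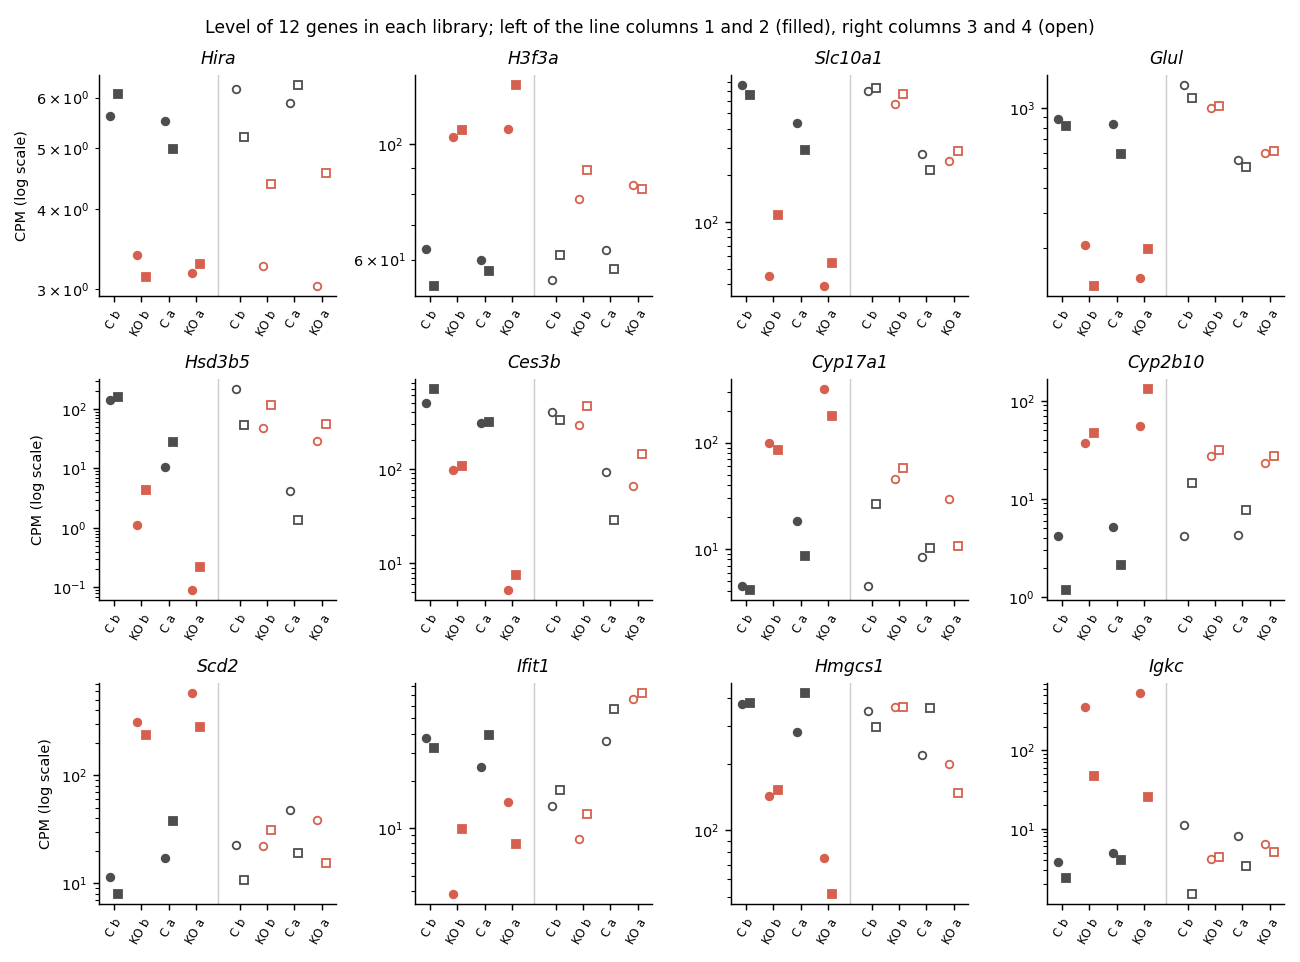
Level in CPM on a log axis of 12 genes in each library (C, control; KO, HIRA KO; b, before; a, after regeneration; circles, columns 1 or 3; squares, columns 2 or 4). In columns 1 and 2, left of the line, Slc10a1 lies at 38.8 to 110.4 CPM in KO and 293 to 768 CPM in control, and in columns 3 and 4, right of the line, at 248 to 672 CPM in KO and 216 to 730 CPM in control.

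The largest differences upward, among named protein-coding genes of at least 1 CPM without overlap (predicted genes, Rik genes and immunoglobulin segments such as Igkc left aside), were in Pcdh20 (a protocadherin), Scn2a (a sodium channel subunit), Cyp2c65, Jchain (the joining chain of secreted immunoglobulin), Omp, Krt23 (a keratin), Sult1e1 (the estrogen sulfotransferase), Vil1 (villin, of microvilli), Esm1, Scd2 (a fatty acid desaturase), Cyp2b10 and Cyp17a1. Pcdh20 had 0 counts in all 4 control libraries and a total of 179 counts in the KO, which is at least 11.4-fold higher against a floor of 3 counts per library. Scn2a had 2 counts in the controls and 263 in the KO. These genes are close to silent in the control livers of this comparison. Scd2 stood at 11.5 and 7.96 CPM before and 17.1 and 37.9 CPM after in the control, against 309.9 and 235 CPM before and 578 and 280.3 CPM after in the KO, log2 fold change 4.38 ± 0.42. Vil1 stood at 0.448 and 0.484 CPM before and 0.125 and 0.287 CPM after in the control, against 10.1 and 8.80 CPM before and 5.21 and 6.35 CPM after in the KO. For both genes every KO library lay above every control library.

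Largest downward were Mup7, Mup1, Hsd3b5, Mup11, Mup14, Mup12, Ces3b, Cyp2c37, Dio1, Mup17, Sult2a8 and Mup21. The major urinary proteins (Mup), the Ces3 carboxylesterases and the Cyp2c enzymes are families of near-identical genes between which the counting can split reads, so the single member is uncertain. Dio1, the deiodinase that activates thyroid hormone, has no such copies and stood at 38.7 and 68.4 CPM before and 74.5 and 57.2 CPM after in the control, against 9.26 and 5.73 CPM before and 2.95 and 3.69 CPM after in the KO, log2 fold change -3.53 ± 0.40. Ces3b stood at 493 and 700.0 CPM before and 306 and 313 CPM after in the control, against 96.8 and 106 CPM before and 5.26 and 7.50 CPM after in the KO, log2 fold change -4.01 ± 0.75. Both were lower in every KO library, and Ces3b more so after regeneration. The Mup genes also varied among controls: Mup7 stood at 91.5 and 1160.1 CPM in the 2 control libraries before and 88.8 and 429 CPM after. Mup17 stood at 2.51 to 20.1 CPM in the controls numbered 1 and 2 but at 17.0 to 505 CPM in the controls numbered 3 and 4, so the column pairs differed in this gene apart from the KO. Leaving out single libraries ended the call of Mup7 in 4 of 8 fits, and those of Mup11, Mup14 and Sult2a8 in 6 of 8 each, and of Jchain in 6 of 8, all with the direction kept.

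**Figure D2:**
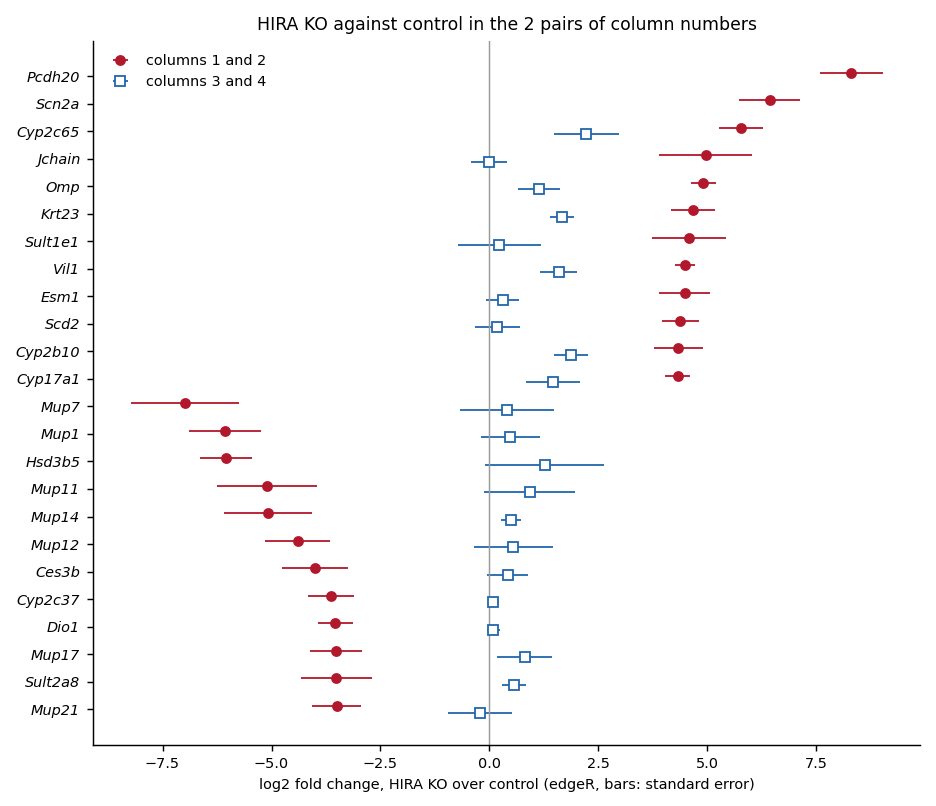
Log2 fold change of HIRA KO over control, with an error worked back from the test, for the 24 genes named as largest, in columns 1 and 2 (filled circles) and in columns 3 and 4 (open squares). The circles lie between -6.99 and 8.30, and the squares lie between -0.22 and 2.23. The circle of Pcdh20, at 8.30, is a fitted value that depends on the prior count, since its controls had 0 counts. Pcdh20 and Scn2a had too few counts in columns 3 and 4 to be fitted.

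Part of the genes known to differ between the sexes in liver differed between HIRA KO and control in these male mice. Of 14 male-biased genes 5 were called lower and none higher, at a list median of -1.91 on the log2 scale, and of 12 female-biased genes tested 7 were called higher and 1 lower, with a median of 2.94 (all genes, 0.02). Hsd3b5, a steroid dehydrogenase of male liver, stood at 139 and 162 CPM before and 10.4 and 27.5 CPM after in the control, against 1.11 and 4.40 CPM before and 0.0906 and 0.222 CPM after in the KO, log2 fold change -6.05 ± 0.60. Mup3 (-2.97 ± 0.20), Selenbp2 (-2.91 ± 0.54), Mup20 (-1.97 ± 0.41) and Cyp7b1 (-1.86 ± 0.38), the oxysterol hydroxylase, were the other male-biased genes called. Every KO library lay below every control library of its time for these genes. On the female side, Cyp17a1, a steroid hydroxylase and lyase, stood at 4.48 and 4.14 CPM before and 18.4 and 8.65 CPM after in the control, against 99.3 and 85.9 CPM before and 321 and 179 CPM after in the KO, log2 fold change 4.32 ± 0.29. Cux2, a transcription factor of female liver, stood at 0.199 and 0.323 CPM before and 0.626 and 0.688 CPM after in the control, against 0.952 and 1.60 CPM before and 12.2 and 11.5 CPM after in the KO, log2 fold change 3.54 ± 0.37. Cyp2b9 had 3.05 ± 0.72 and Acot3 3.82 ± 0.71. Sult3a1 was the exception, with no count in any KO library or in the control libraries before, and 2.44 and 0.573 CPM in the controls after. Elovl3, a male-biased elongase, was not called (-3.26 ± 2.11), with 102 and 182 CPM in KO before and 0.181 and 0.0444 CPM in KO after, against 41.6 and 145 CPM in control after. The summed level of the male-biased list was 14608 and 18003 CPM before and 7130.0 and 9401 CPM after in the control, against 6075 and 7050.2 CPM before and 3537 and 4125 CPM after in the KO. The median of this list was -0.76 from the libraries before alone and -2.35 from those after. In the controls numbered 3 and 4 the male-biased sum was 16236 and 9907 CPM before and 5803 and 4361 CPM after. The female-biased sum there was 9.62 and 89.2 CPM before and 125 and 702 CPM after. In columns 1 and 2 the KO held 133 and 130 CPM of it before and 431 and 494 CPM after. Both lists thus varied among controls apart from the KO. The highest female-biased sum of a control exceeded every KO library of columns 1 and 2.

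Genes of the hepatocytes around the central vein were lower as a group. Of 12 pericentral genes 8 were called lower and none higher, all 12 had a negative log2 fold change, and the median was -0.95. Glul, glutamine synthetase, which is confined to the innermost ring of hepatocytes, stood at 883 and 813 CPM before and 836 and 588 CPM after in the control, against 208 and 129 CPM before and 141 and 197 CPM after in the KO, log2 fold change -2.20 ± 0.19. Slc1a2, a glutamate transporter, stood at 119.7 and 138 CPM before and 99.3 and 93.0 CPM after in the control, against 24.2 and 28.9 CPM before and 13.6 and 18.2 CPM after in the KO, log2 fold change -2.43 ± 0.13. For both genes every KO library lay below every control library. Cyp1a2 had -1.63 ± 0.17, Rgn -1.21 ± 0.20, Oat -0.99 ± 0.22, Lect2 -0.92 ± 0.09 and Lgr5 -0.78 ± 0.19. Wnt2, a Wnt ligand that endothelial cells of the liver secrete, was also called lower, at 2.93 and 2.96 CPM before and 4.32 and 3.09 CPM after in the control, against 1.22 and 1.27 CPM before and 1.72 and 1.07 CPM after in the KO, and Wnt9b was not called (-0.82 ± 0.35). Of 10 periportal genes 3 were called higher, Cdh1 (1.05 ± 0.13), Aldh1b1 (0.90 ± 0.11) and Sdsl (0.60 ± 0.10), and 1 lower, Pigr (-1.10 ± 0.15), the receptor that carries immunoglobulin A into bile, with a median of 0.45. The summed level of the periportal list was 5728 and 5148 CPM before and 4167 and 3841 CPM after in the control, against 5283 and 5079 CPM before and 3289 and 3949.7 CPM after in the KO, so the genotypes overlapped at both times.

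Genes of bile acid synthesis and transport were called in both directions, more often lower. Slc10a1, which takes bile acids from blood into hepatocytes, stood at 768 and 658 CPM before and 437 and 293 CPM after in the control, against 45.1 and 110.4 CPM before and 38.8 and 54.1 CPM after in the KO, log2 fold change -3.08 ± 0.30. No KO library reached even the lowest control library. Of 20 genes of bile acid synthesis and transport 9 were called lower and 3 higher, with a median of -0.58. The uptake carrier Slco1b2 had -1.37 ± 0.14 and the basolateral exporter Abcc3 -2.38 ± 0.34. The enzymes Cyp7b1, Slc27a5 (-0.91 ± 0.16), Baat (-0.79 ± 0.14), Cyp27a1 (-0.62 ± 0.16) and Akr1d1 (-0.50 ± 0.13) and the phospholipid exporter Abcb4 (-0.68 ± 0.12) were the other genes called lower. Called higher were Abcg5, which moves sterols into bile (1.06 ± 0.23), Slco1a4 (1.02 ± 0.28) and the exporter Abcc4 (0.98 ± 0.18).

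Cholesterol synthesis was lower along the pathway. Of 24 genes 15 were called lower and none higher, with a median of -0.67. Hmgcs1, which makes the first committed intermediate, stood at 377 and 378 CPM before and 282 and 422 CPM after in the control, against 144 and 152 CPM before and 75.2 and 51.4 CPM after in the KO, log2 fold change -1.91 ± 0.26. Idi1 had -1.89 ± 0.26, Cyp51 -1.63 ± 0.23 and Msmo1 -1.44 ± 0.14, and the 4 KO libraries lay below the 4 control libraries for each of these. Srebf2, the gene of the transcription factor that drives this pathway, was called lower by less (-0.36 ± 0.10). The bases before the start of Hmgcs1 are shown because a sterol regulatory element, the site through which this factor acts, lies within them. They come from RefSeq on GRCm38.p6 and run 5′ to 3′, from 250 bases before to 50 after the start of the gene, with the match to TCAC and CCAC separated by 1 base of any kind, searched on both strands, in capitals.
Hmgcs1 (chr13:119690101-119690400, plus strand): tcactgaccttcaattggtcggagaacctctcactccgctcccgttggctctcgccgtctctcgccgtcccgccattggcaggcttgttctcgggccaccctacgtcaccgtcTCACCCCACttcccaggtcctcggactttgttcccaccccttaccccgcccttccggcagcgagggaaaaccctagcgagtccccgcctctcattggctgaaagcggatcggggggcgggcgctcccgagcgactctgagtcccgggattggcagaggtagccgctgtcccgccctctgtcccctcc
This motif was found in 1 of the 16 list members with a RefSeq promoter, and in 1.44% of all 27025 genes with a promoter window of this length. Genes of fatty acid synthesis went both ways: of 15, 1 was called higher (Mlxipl, 0.58 ± 0.13) and 2 lower (Elovl5, -0.68 ± 0.17, and Gpam, -0.63 ± 0.18), while Fasn (-0.91 ± 0.27) was not called. Of 20 genes of fatty acid oxidation 5 were called lower, among them Plin2, a coat protein of lipid droplets (-0.47 ± 0.12), and 2 higher, Acot1 (1.80 ± 0.21) and Pdk4 (1.21 ± 0.25).

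Among liver transcription factors 5 of 17 were called lower and none higher, with a median of -0.36. Nr1i3, the receptor CAR that induces drug-metabolizing genes, stood at 56.0 and 45.6 CPM before and 56.6 and 25.3 CPM after in the control, against 4.13 and 5.73 CPM before and 4.89 and 8.88 CPM after in the KO, log2 fold change -2.95 ± 0.38. Ppara, the receptor that drives fatty acid oxidation, had -1.02 ± 0.12, Nr5a2 -0.56 ± 0.10 and Rxra -0.45 ± 0.13. Hnf4a, the central regulator of hepatocyte genes, was not called (-0.36 ± 0.16), and its KO libraries held 352 to 589.7 CPM against 573 to 689 CPM in control. Of 23 genes of xenobiotic metabolism 7 were called higher and 7 lower. Cyp2b10, which CAR is known to induce, stood at 4.18 and 1.18 CPM before and 5.20 and 2.12 CPM after in the control, against 37.0 and 46.7 CPM before and 55.2 and 132 CPM after in the KO, log2 fold change 4.34 ± 0.56. Cyp2b10 was thus higher in the same libraries in which Nr1i3 was lower. Por (1.44 ± 0.27), which passes electrons to the P450 enzymes, Gsta4 (1.38 ± 0.16), Cyp3a11 (1.12 ± 0.15) and Fmo5 (0.95 ± 0.16) were called higher, as were Cyp2b9 and Cyp2b13. Cyp2c37 stood at 421 and 289 CPM before and 142 and 64.6 CPM after in the control, against 12.3 and 30.0 CPM before and 6.66 and 15.9 CPM after in the KO, log2 fold change -3.63 ± 0.54. Lower too were Gstm3 (-2.10 ± 0.38), Cyp2c50 (-1.90 ± 0.41), Gstm1 (-1.73 ± 0.26), Cyp1a2, Gstm2 (-1.10 ± 0.23) and Sult1a1 (-0.77 ± 0.20).

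Interferon-stimulated genes, which cells switch on in response to interferon and which restrain viruses, were lower without exception in sign. Of 29 genes 20 were called lower and none higher, all 29 had a negative log2 fold change, and the median was -1.14. Ifit1, which binds foreign RNA, stood at 37.7 and 32.2 CPM before and 24.4 and 39.3 CPM after in the control, against 3.81 and 9.87 CPM before and 14.6 and 7.90 CPM after in the KO, log2 fold change -1.91 ± 0.41. Isg15, a ubiquitin-like modifier, stood at 25.9 and 28.9 CPM before and 31.9 and 48.1 CPM after in the control, against 3.92 and 6.73 CPM before and 22.1 and 18.9 CPM after in the KO, log2 fold change -1.61 ± 0.36. Ifit3 had -1.65 ± 0.26, Dhx58, a helicase that senses RNA, -1.57 ± 0.15, and Irf7 -1.09 ± 0.15. The summed level of the list was 1536 and 1682 CPM before and 1803 and 1996 CPM after in the control, against 786 and 905 CPM before and 1296 and 1102 CPM after in the KO. The controls numbered 3 and 4 held 1168 and 1102 CPM before and 2356 and 2647 CPM after, so the control level itself differed between the column pairs, in opposite senses at the 2 times. Genes of MHC class I presentation, which overlap with the interferon response in their control, went the same way: 11 of 15 were called lower and none higher, with a median of -0.55. Psmb9, a subunit of the immunoproteasome, had -1.18 ± 0.16, its partner Psmb8 -0.78 ± 0.13, the transactivator Nlrc5 -0.96 ± 0.12 and B2m, the light chain, -0.70 ± 0.12.

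The promoters of the 3 interferon-stimulated genes with the most negative log2 fold change among those that hold an interferon-stimulated response element are shown to place the element, which was a condition of their choice. The sequences are from RefSeq on GRCm38.p6, 5′ to 3′, and the capitals mark GAAA and GAAA separated by 2 bases of any kind, or on the other strand TTTC and TTTC.
Ifit1 (chr19:34640639-34640938, plus strand): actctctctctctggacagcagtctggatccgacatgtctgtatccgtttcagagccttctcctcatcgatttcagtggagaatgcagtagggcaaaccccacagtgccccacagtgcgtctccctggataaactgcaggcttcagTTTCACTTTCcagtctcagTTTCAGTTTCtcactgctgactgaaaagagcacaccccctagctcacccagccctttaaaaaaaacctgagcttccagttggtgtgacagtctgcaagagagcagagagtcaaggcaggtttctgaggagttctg
Ifit3 (chr19:34583279-34583578, plus strand): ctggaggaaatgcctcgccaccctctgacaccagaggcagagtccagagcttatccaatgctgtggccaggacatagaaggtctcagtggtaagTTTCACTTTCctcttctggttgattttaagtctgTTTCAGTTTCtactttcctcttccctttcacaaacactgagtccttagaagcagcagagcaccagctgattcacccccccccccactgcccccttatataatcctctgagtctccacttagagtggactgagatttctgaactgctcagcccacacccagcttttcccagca
Isg15 (chr4:156200769-156201068, minus strand): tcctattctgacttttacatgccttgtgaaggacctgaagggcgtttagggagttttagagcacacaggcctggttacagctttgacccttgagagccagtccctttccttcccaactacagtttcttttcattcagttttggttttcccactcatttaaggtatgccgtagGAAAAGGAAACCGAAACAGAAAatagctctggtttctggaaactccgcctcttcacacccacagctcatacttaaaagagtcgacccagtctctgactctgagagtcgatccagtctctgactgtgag
The element was found, over the whole list, in 11 of the 19 list members with a RefSeq promoter. It was found in 3.99% of all 27025 genes with a promoter window of this length, a gene being counted if any of its windows held a match. Of the 13 called-lower members with a promoter 6 held it. A match says that these letters are present and not that a factor is bound.

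Plasma proteins of the acute phase response, which liver secretes after injury, were lower in part: 7 of 22 were called lower and 1 higher, with a median of -0.75. Serpina3n stood at 539 and 619 CPM before and 1566 and 923 CPM after in the control, against 154 and 188 CPM before and 206 and 233 CPM after in the KO, log2 fold change -2.12 ± 0.21. Hp, haptoglobin, had -1.34 ± 0.20, Itih3 -1.08 ± 0.17, Crp -1.05 ± 0.18, Itih4 -0.67 ± 0.17 and the fibrinogen chain Fga -1.01 ± 0.23, and the chain Fgg was called lower too. The exception was Hamp, which encodes the iron hormone hepcidin, at 350.3 and 230.3 CPM before and 103 and 97.1 CPM after in the control, against 493 and 607 CPM before and 323 and 514 CPM after in the KO. The list's median was -0.09 from the libraries before alone and -1.005 from those after. Among 34 secreted and metabolic hepatocyte genes 8 were called higher and 3 lower, with a median of 0.05. Alb was not called, with 78771 to 134476 CPM in control and 112741 to 135376 CPM in KO, and neither was Serpina6 (-0.11 ± 0.47). Trf, transferrin, was called higher at 0.76 ± 0.20, Apoc3 at 0.69 ± 0.14 and Ahsg at 0.67 ± 0.16.

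**Figure D3:**
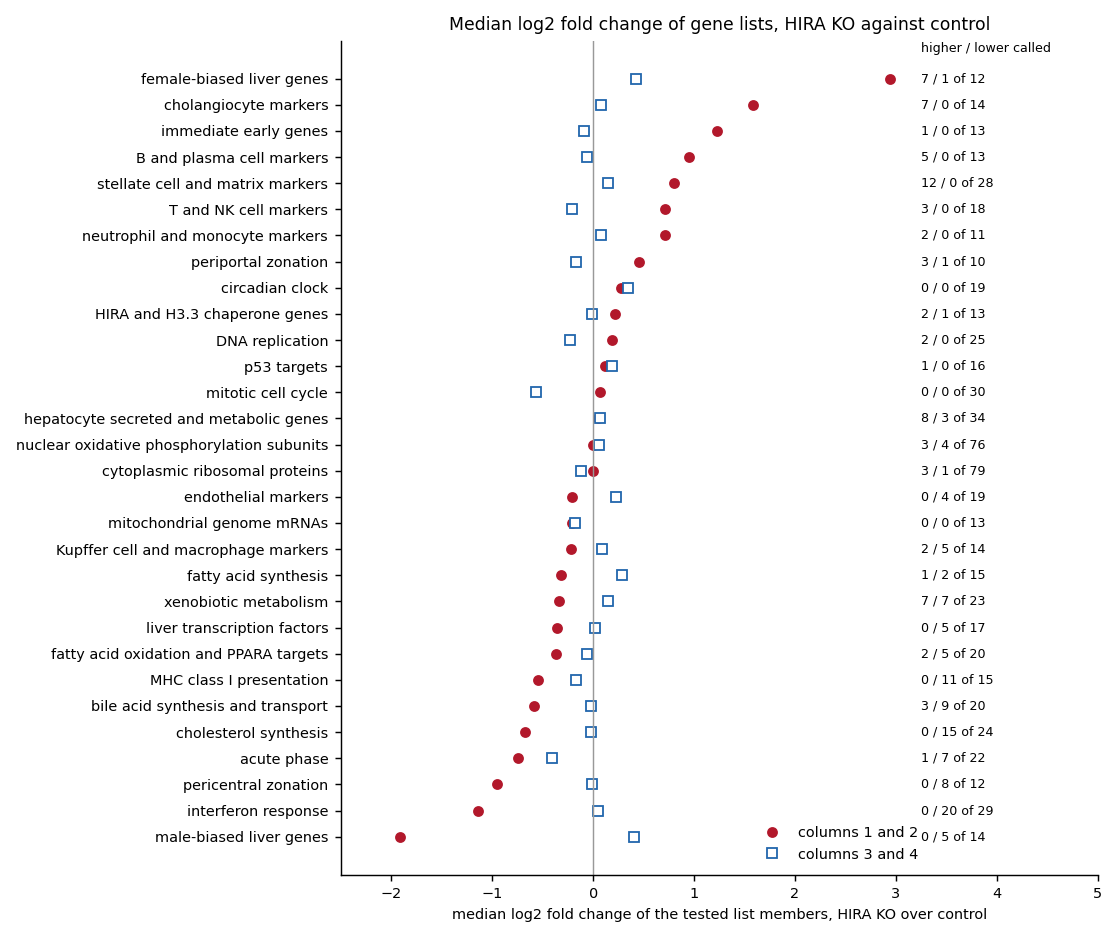
Median log2 fold change of HIRA KO over control for each gene list with at least 10 genes tested, in columns 1 and 2 (filled circles) and columns 3 and 4 (open squares), with the number of members called higher and lower in columns 1 and 2. The circles run from -1.91 for male-biased to 2.94 for female-biased genes, and the squares from -0.57 to 0.42.

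Some markers of cells other than hepatocytes were also called between KO and control. Of 14 cholangiocyte markers 7 were called higher and none lower, with a median of 1.58. Krt23 stood at 1.04 and 0.645 CPM before and 0.564 and 0.688 CPM after in the control, against 25.0 and 11.1 CPM before and 10.7 and 29.1 CPM after in the KO, log2 fold change 4.66 ± 0.51. Krt19, the defining keratin of bile ducts, was not called (3.01 ± 1.10), though it was in 6 of 14 other settings of the fit. It stood at 1.99 and 1.18 CPM before and 1.25 and 1.15 CPM after in the control, against 52.7 and 4.40 CPM before and 3.53 and 2.58 CPM after in the KO. A single KO library before regeneration thus held most of the Krt19, and that library was also high in Epcam (11.6 CPM, against 4.00 CPM in the other) and in Acta2 of smooth muscle and activated stellate cells (79.0 against 9.74 CPM). The summed level of the cholangiocyte list was 93.6 and 73.7 CPM before and 101 and 141 CPM after in the control, against 230.3 and 137 CPM before and 211 and 184 CPM after in the KO. Without both KO columns numbered 1 its median was 1.06.

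Of 28 stellate cell and matrix markers 12 were called higher and none lower, all 28 had a positive log2 fold change, and the median was 0.80. Timp1, an inhibitor of matrix proteases, stood at 0.249 and 0 CPM before and 0.438 and 0.802 CPM after in the control, against 0.899 and 0.533 CPM before and 4.40 and 3.60 CPM after in the KO, log2 fold change 2.61 ± 0.46. Col5a2 had 1.51 ± 0.35, Col6a3 1.09 ± 0.18 and Lox, which crosslinks collagen, 1.86 ± 0.44. Col1a1, the main fibrillar collagen, was not called (1.71 ± 0.46), though it was in 8 of 14 other settings of the fit. It stood at 7.81 and 8.71 CPM before and 30.5 and 26.7 CPM after in the control, against 62.0 and 43.9 CPM before and 64.6 and 35.1 CPM after in the KO. Before regeneration the KO libraries held several times the control level of Col1a1, and after it the ranges lay closer. The list's median was 1.42 before and 0.31 after regeneration, and 0.54 without both KO columns numbered 1. Its summed level was 609 and 591 CPM before and 852 and 941 CPM after in the control, against 1491 and 1166 CPM before and 1199 and 986 CPM after in the KO.

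Immunoglobulin genes gave the widest gap among immune cells. Of 13 B and plasma cell markers 5 were called higher and none lower, with a median of 0.95. Igkc, the kappa light chain, stood at 3.78 and 2.37 CPM before and 4.95 and 4.07 CPM after in the control, against 354 and 47.1 CPM before and 535 and 25.2 CPM after in the KO, log2 fold change 6.00 ± 1.31. Jchain stood at 1.54 and 1.61 CPM before and 1.44 and 0.516 CPM after in the control, against 74.8 and 14.7 CPM before and 61.1 and 6.66 CPM after in the KO. In both genes the KO libraries numbered 1 lay several times above those numbered 2. The list's median was 0.88 without both columns numbered 1. Its summed level was 28.6 and 15.9 CPM before and 27.2 and 24.1 CPM after in the control, against 476 and 113 CPM before and 647 and 70.0 CPM after in the KO. Over all genes 7.45% were called higher and 8.58% lower, and the short lists that follow were not tested against these shares. A few calls in a list are therefore not read as a result about that cell type. Of 18 T and NK cell markers 3 were called higher (Lck, 0.90 ± 0.27, Il2rb, 0.80 ± 0.20, and Trac, 1.36 ± 0.36), and of 11 neutrophil and monocyte markers 2 (Ccr2, 1.56 ± 0.16, and Chil3, 1.29 ± 0.40). Of 14 Kupffer cell and macrophage markers 5 were called lower, all known for the resident cell (Folr2, Timd4, Clec4f, Vsig4 and Cd5l, from -0.91 to -0.42), and 2 higher, Cd68 (0.49 ± 0.13) and Lyz2 (0.41 ± 0.10). Of 19 endothelial markers 4 were called lower, Wnt2, Tek (-0.62 ± 0.13), Clec4g (-0.56 ± 0.10) and Ehd3 (-0.51 ± 0.10). No marker of these 6 lists was at 0 in all 8 libraries. The part of other cells in the hepatocyte gene results was not tested. No gene was called among the markers of mesothelium, erythroid cells, pancreatic acini, or fat and muscle.

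**Figure D4:**
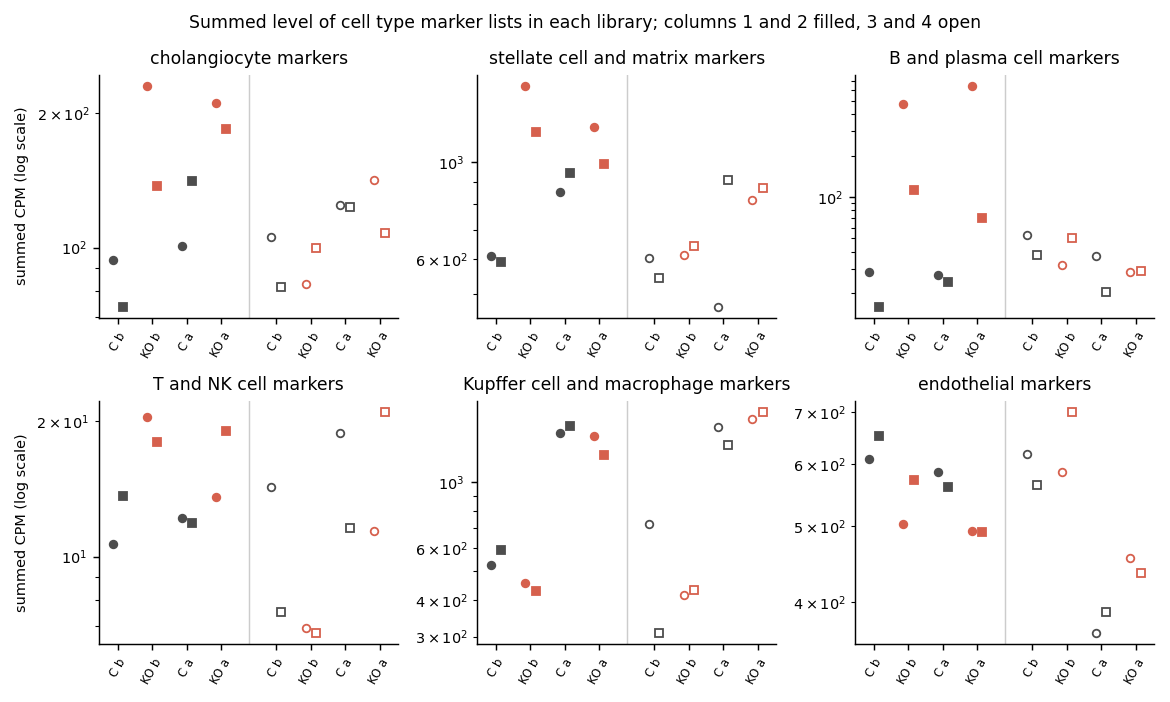
Summed CPM (log axis) of the markers of 6 cell types in each library, with symbols as in the plot of 12 genes. In columns 1 and 2 the B and plasma cell markers lie at 70.0 to 647 CPM in KO and 15.9 to 28.6 CPM in control, and the endothelial markers at 492 to 573 CPM in KO and 561 to 652 CPM in control.

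Other lists gave few calls. None of 30 mitotic genes was called. Mki67, the proliferation antigen, stood at 0.796 and 1.29 CPM before and 11.8 and 37.8 CPM after in the control, against 6.14 and 4.47 CPM before and 24.4 and 10.5 CPM after in the KO. Before regeneration the KO libraries were the higher, and after it the 2 genotypes overlapped. The summed mitotic level was 21.4 and 23.3 CPM before and 118 and 438 CPM after in the control, against 67.8 and 57.4 CPM before and 183 and 119.7 CPM after in the KO. Of 25 DNA replication genes Lig1 (0.97 ± 0.18) and Gins2 (1.02 ± 0.30) were called higher, of 13 immediate early genes Ier3 alone (1.38 ± 0.28), of 16 p53 targets 1 higher, and of 6 fetal liver genes only Igf2, at a total of 74 counts in KO and 9 in control. Cytoplasmic ribosomal proteins (3 higher and 1 lower of 79) and nuclear genes of oxidative phosphorylation (3 higher and 4 lower of 76) had called shares below the background of all genes, with medians of -0.00. None of 13 mitochondrial mRNAs and none of 19 clock genes was called. The clock list's median was 0.08 from the libraries before alone and 0.84 from those after. Its summed level was 1144 and 887 CPM before and 448 and 430 CPM after in the control. In the KO it was 926 and 779 CPM before and 589 and 948 CPM after.

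Whether the KO effect changed with regeneration was tested as an interaction of genotype and time. In this test 30 of 20857 genes (0.144%) were called, 7 with a positive and 23 with a negative interaction, and 2113 had an unadjusted p under 0.05. Of the 30, 7 were also called for the KO effect over both times, and 13 had opposite signs at the 2 times. Ces3b, a carboxylesterase, had a log2 interaction of -2.99 ± 0.29, adjusted p = 0.0075, with the KO at 96.8 and 106.2 CPM before and 5.26 and 7.50 CPM after. Ypel2 had -2.14 ± 0.23, adjusted p = 0.0106, with levels of 22.6 and 24.6 CPM before and 49.6 and 46.9 CPM after in the control, against 17.5 and 17.7 CPM before and 9.34 and 6.48 CPM after in the KO. The Ypel2 level was thus higher after than before regeneration in control and lower in KO. B3galt1, a galactosyltransferase, had -2.06 ± 0.25, adjusted p = 0.0188. Slc5a6, the carrier of biotin and pantothenate, had 1.88 ± 0.23, adjusted p = 0.0188, with 8.45 and 9.41 CPM before and 7.39 and 5.56 CPM after in the control, against 12.0 and 12.7 CPM before and 33.3 and 30.2 CPM after in the KO. Mtmr11, of the myotubularin family, had -2.08 ± 0.26, adjusted p = 0.0188, with 2.49 and 2.47 CPM before and 11.1 and 12.0 CPM after in the control, against 13.9 and 17.2 CPM before and 18.5 and 14.5 CPM after in the KO. In Slc5a6 the KO stood apart mainly after regeneration, and in Mtmr11 mainly before it. Among list members Col3a1 (-1.81 ± 0.27, adjusted p = 0.0294), Slco1a4 (1.39 ± 0.21, adjusted p = 0.0294), Me1 (-1.39 ± 0.21, adjusted p = 0.0294) and the erythroid marker Alas2 (-1.51 ± 0.21, adjusted p = 0.0194) were called.

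The number of interaction calls varied with single libraries. In edgeR they numbered 31 without HIRA KO before number 1 and 33 without HIRA KO before number 2, but 0 without control_before number 1 (where 1487 genes had an unadjusted p under 0.05), 7 without control_before number 2, 47 without control_after number 1, 18 without control_after number 2, 249 without HIRA KO after number 1 and 57 without HIRA KO after number 2. With the column number as a replicate block, which treats same-numbered columns before and after as pairs, 252 genes were called, 62 positive and 190 negative, and DESeq2 called 255. Ces3b kept the sign of its interaction in all these fits, as did the other 4 genes.

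**Figure D5:**
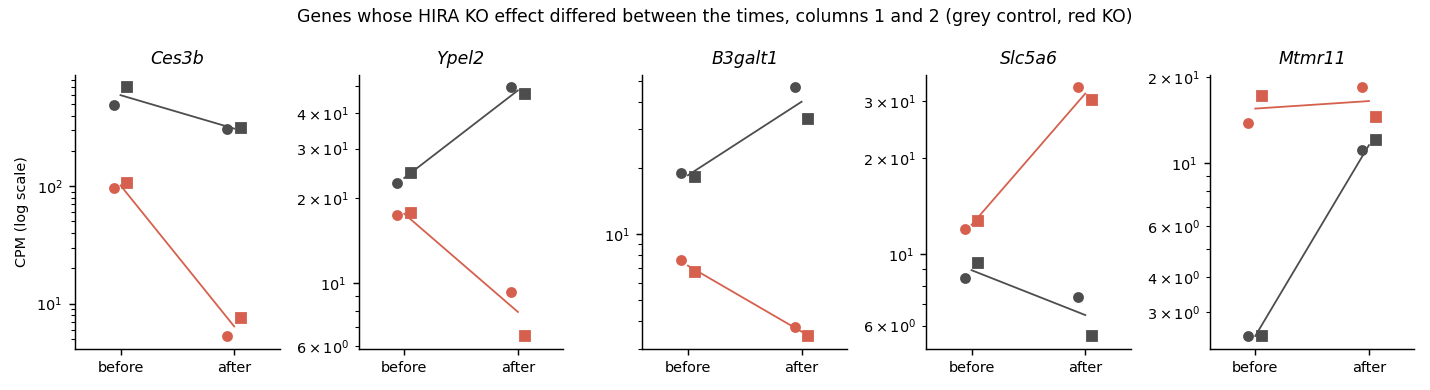
CPM on a log axis of the 5 genes with the smallest interaction p, before and after regeneration in columns 1 and 2 (circles, column 1; squares, column 2; lines join group means; grey, control; red, HIRA KO). After regeneration Ces3b stands at 5.26 and 7.50 CPM in the KO and at 306 and 313 CPM in the control.

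The columns numbered 3 and 4 are separate libraries of the same 4 groups. They were part of the principal component that set the HIRA KO columns 1 and 2 apart, so smaller values there are in part fixed by the choice. There 31 of 20199 genes (0.153%) were called, 24 higher and 7 lower, and 1642 had an unadjusted p under 0.05. The 4 libraries of a genotype were entered as independent in this fit, although they can come from as few as 2 mice. No fit with a replicate block was made for these columns, so their p-values may be too small. Hira was lower by a similar amount, at 6.18 and 5.21 CPM before and 5.89 and 6.29 CPM after in the control, against 3.26 and 4.38 CPM before and 3.03 and 4.56 CPM after in the KO, with a log2 fold change of -0.62 ± 0.18 and an edgeR adjusted p of 0.31, so it was not called. Without 1 library the number of called genes was 48 (control_before number 3), 11 (HIRA KO before number 4), 13 (control_after number 4) or 67 (HIRA KO after number 4), and DESeq2 called 145.

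Of the 31 genes 22 were called in the same direction in columns 1 and 2, 1 in the opposite direction and 8 not at all. Over all genes tested in columns 1 and 2, 7.45% were called higher and 8.58% lower. In 20 of the 22 the difference was larger in columns 1 and 2, with a median absolute log2 fold change of 1.93 there and 1.05 in columns 3 and 4. The genes given next were chosen after their values were seen. Pls1, plastin 1 of the microvillus core, stood at 1.03 and 0.533 CPM before and 0.654 and 0.768 CPM after in the control, against 5.23 and 9.77 CPM before and 8.58 and 5.90 CPM after in the KO in columns 3 and 4 (3.31 ± 0.28, edgeR adjusted p = 0.000451), and at 1.54 and 0.861 CPM before and 2.07 and 3.67 CPM after in the control, against 9.37 and 9.27 CPM before and 18.5 and 24.5 CPM after in the KO in columns 1 and 2 (2.92 ± 0.21). Cdhr2, a protocadherin of microvilli, had 2.97 ± 0.38 (adjusted p = 0.0076) in columns 3 and 4 and 3.88 ± 0.26 in columns 1 and 2. Pls1 and Cdhr2 were higher in all 8 KO libraries of the series than in any control of the same time and column pair. Car14, a membrane carbonic anhydrase, had 1.26 ± 0.12 and 2.22 ± 0.11, Slc2a4, the insulin-dependent glucose transporter, 3.98 ± 0.39 and 2.64 ± 0.65, and Chpf, of chondroitin synthesis, 1.32 ± 0.15 and 2.86 ± 0.12, in that order of column pairs. Krt23 was called (1.67 ± 0.27, adjusted p = 0.034), and so was H3f3a (0.51 ± 0.08, adjusted p = 0.034). Sppl2a (-0.66 ± 0.08), Gldc of glycine cleavage (-0.69 ± 0.10) and Loxl4 (-1.56 ± 0.22) were among those lower in both. The gene in the opposite direction was Mup22, at 0.79 ± 0.11 in columns 3 and 4 and -2.57 ± 0.48 in columns 1 and 2.

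Among the 8 genes called in columns 3 and 4 alone were 2 of the clock, Ciart and Per3. Ciart stood at 0.973 and 2.19 CPM before and 0.545 and 0.480 CPM after in the control, against 9.38 and 8.33 CPM before and 4.50 and 3.28 CPM after in the KO (2.67 ± 0.25, edgeR adjusted p = 0.0006), and in columns 1 and 2 at 4.38 and 2.80 CPM before and 0.689 and 0.344 CPM after in the control, against 13.5 and 6.80 CPM before and 14.0 and 34.3 CPM after in the KO (3.06 ± 0.96). Per3 had 1.43 ± 0.21 (adjusted p = 0.025) and 1.70 ± 0.75. Both pairs of columns gave a positive value, with the larger error in columns 1 and 2. A call in one pair and not in the other does not show that the pairs differ.

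The genes called in columns 1 and 2 had smaller values in columns 3 and 4. Of the 1476 called-higher genes that could be tested there, 1131 had the same sign (76.6%), 15 were called in the same direction and none in the other, and the median log2 fold change was 0.16 against 1.03 in columns 1 and 2. Of 1780 called-lower genes 1235 had the same sign (69.4%), 7 were called lower and 1 higher, and the median was -0.10 against -0.70. Over all 19638 genes tested in both pairs 60.4% had the same sign. An unadjusted p under 0.05 was reached in columns 3 and 4 by 295 of the 1476 called-higher genes, by 295 of the 1780 called-lower genes and by 8.26% of all. Across all genes tested in both, Pearson's r of the log2 fold changes was 0.24 and Spearman's rho 0.25, as a description, since genes are not independent replicates.

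The lists differed in columns 3 and 4. None of the 29 interferon, 24 cholesterol, 20 bile acid, 12 pericentral, 14 male-biased, 28 stellate and 13 B and plasma cell genes was called in columns 3 and 4 by edgeR, and 4, 1, 2, 1, 2, 3 and 0 of them in that order had an unadjusted p under 0.05 there. Such a p was more frequent among clock genes (13 of 19, with 2 called), acute phase genes (10 of 22), genes of xenobiotic metabolism (9 of 23) and endothelial markers (6 of 19), and 1 cholangiocyte marker was called, Krt23. Slc10a1 stood at 693 and 730.5 CPM before and 274 and 216 CPM after in the control, against 573 and 672 CPM before and 248 and 288 CPM after in the KO in these columns, a log2 fold change of -0.02 ± 0.12. Glul had -0.02 ± 0.12, Ifit1 0.07 ± 0.30, Hmgcs1 -0.27 ± 0.24 and Scd2 0.18 ± 0.52. Cyp2b10 had 1.87 ± 0.39, at 4.24 and 14.4 CPM before and 4.25 and 7.73 CPM after in the control, against 27.5 and 31.6 CPM before and 23.1 and 27.1 CPM after in the KO, and was not called (adjusted p = 0.29), though the KO libraries were above the controls there too. The difference between the 2 effects, from a single fit of all 16 columns and given as a description because the columns were picked on it, passed the same adjusted threshold in 1164 of 23018 genes (5.06%), 388 positive and 776 negative. It did so for 14 of the 29 interferon, 11 of the 24 cholesterol, 10 of the 20 bile acid and 6 of the 12 pericentral genes, and for none of the stellate or B and plasma cell markers. For Slc10a1 it was -3.06 ± 0.36 and for Hira -0.14 ± 0.23 on the log2 scale.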

How the data were processed

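The members of this comparison and all gene lists were chosen with earlier results of these data known. Poly-A RNA of whole liver was sequenced in 16 libraries, of which 8 form the comparison. The authors trimmed the reads with Trim Galore, aligned them to mm10 with STAR and deposited whole-number read counts per gene, unnormalized, made with HOMER; the strand setting of the counting is not given in the sources used here. FPKM values, which relate reads to gene length and library size, were deposited by the authors in a separate table whose tool is not given in the sources used here, and empty cells there were read as 0.

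Columns were assigned to genotype and time by name. Genes with at least 10 counts over the 8 columns were fitted with edgeR 4.0.16 (R 4.3.3; TMM, robust quasi-likelihood test, Benjamini-Hochberg threshold 0.05) with time as covariate. The interaction was fitted on 4 group means, and columns 3 and 4 separately in the same way. Per the study's description the libraries of a group come from separate mice, but columns are not tied to mice. Scripts were tested on simulated data. Whether same-numbered columns deviated together was not settled. In control the correlation of their deviations was 0.20, 0.28, 0.08 and 0.38, in order of column number. The highest with another number was 0.06, 0.06, 0.07 and 0.07. In HIRA KO the correlation was 0.59, 0.39, 0.46 and 0.58, and the highest with another number 0.335, 0.378, 0.52 and 0.43. HIRA KO number 3 thus correlated more with another number than with its own. limma's consensus correlation was -0.07. Each mouse gave both samples, so the number was also used as a replicate block. Genes were named by rule: the 12 higher and 12 lower with the largest log2 fold change among called genes of at least 1 CPM without overlap, the 5 smallest interaction p, up to 4 members per list, and a fixed set around HIRA and liver. Predicted and non-coding genes were counted but not named, and some list members are not reported here. Alternatives used DESeq2 1.42.0, limma 3.58.1, other filters and scaling, FPKM, and fewer libraries. Promoter sequences came from RefSeq on GRCm38.p6.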

Additional observations from a re-analysis of the deposited data

Results flagged for a closer look

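A value that stands far from the other 3 of its group by Dixon's criterion was found in 14 of 164 gene and group combinations (8.54%), where chance gives about 5%. In HIRA KO these were Krt19 at 52.7 CPM before in column 1, Jchain at 61.1 CPM after in column 1 and Hira at 4.56 CPM after in column 4. Among the controls numbered 1 and 2 they were Cyp2c65 at 0.516 CPM, Mup7 at 429 CPM and Mup12 at 9.17 CPM, all after in column 2, Cyp17a1 at 18.4 CPM and Serpina6 at 261 CPM, both after in column 1, and Krt19 at 1.18 CPM before in column 2. Among the controls of column 4 they were Pcdh20 at 0.118 CPM before and 0.0480 CPM after, Cyp17a1 at 26.4 CPM before, Mtmr11 at 0.888 CPM before and Ypel2 at 28.1 CPM after.

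The KO effect differed between after and before regeneration, by the edgeR interaction test, in 30 genes. The named ones had log2 differences of -2.99 (Ces3b), -2.14 (Ypel2), -2.06 (B3galt1), 1.88 (Slc5a6) and -2.08 (Mtmr11).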

How the results depend on the processing

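No named gene that was called in columns 1 and 2 changed sign under another setting, whereas the uncalled Cabin1, Mki67 (-0.48 to 2.34) and Serpina6 (-0.66 to 0.30) did, and 1 called gene had the opposite direction in each FPKM fit. Several list medians changed sign under some setting, among them mitotic genes (0.06, and -0.76 after regeneration alone), fatty acid synthesis (-0.31, and 0.23 before alone), erythroid markers (-0.19, and 0.38 after alone) and mesothelial markers (1.46, and -0.70 without both HIRA KO columns numbered 1). The 3342 called genes of columns 1 and 2 became 1554 without time as covariate, 2011 from the libraries before regeneration alone, 1502 from those after alone and 1607 without both HIRA KO columns numbered 1 (added after seeing the data), and 2204 to 3432 without 1 library, the lowest without control after number 1. FPKM changed the balance: 58.6% (pseudocount 1) and 60.3% (pseudocount 0.1) of calls were higher, against 46.5% from counts. With the replicate block, fitted by limma voom, 3666 genes were called, against 3292 without the block. The 30 interaction calls became 255 with DESeq2, 738 with no filter beyond 1 count, 16 with filterByExpr, 70 from all 16 columns and 252 with the replicate block, and 0 to 249 without 1 library. The 31 calls of columns 3 and 4 became 145 with DESeq2, 393 with no filter beyond 1 count and 55 from all 16 columns, and 11 to 67 without 1 library. The causes were not tested. Of the recomputed list medians 711 moved by less than the standard deviation over the 4 KO libraries of columns 1 and 2, and 59 by more. That spread takes in both times, so it also holds any change of the KO effect with regeneration. Depth limits the lowest genes, such as Pcdh20 and Scn2a.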
